A study of Mus musculus with 17 samples.

Results

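The 36 genes described here encode the working parts of the lysosome. They were selected by gene name, with earlier results of these data known, and all 36 were listed among the 21931 genes of the authors' table and passed the filter on low counts. They comprised 11 proteases and peptidases (Ctsa, Ctsb, Ctsc, Ctsd, Ctsf, Ctsh, Ctsl, Ctss, Ctsz, Lgmn and Tpp1), 8 glycosidases (Hexa, Gaa, Gla, Glb1, Gusb, Naglu, Man2b1 and Neu1), 5 genes of lipid handling and cofactors (Npc1, Npc2, Lipa, Psap and Grn), 6 membrane proteins (Lamp1, Lamp2, Cd63, Scarb2, Laptm4a and Mcoln1), 5 genes of the proton pump called V-ATPase (Atp6v0d1, Atp6v1a, Atp6v1b2, Atp6v1h and Atp6ap1), and Tfeb, which encodes a transcription factor of lysosomal genes.

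The transcripts were measured by bulk RNA sequencing of MC38 tumors, which grow from a mouse colon cancer cell line. Wild-type C57BL/6J mice aged 6 to 8 weeks received 500000 cells under the skin on both sides. In the cryoablation group the tumor on 1 side was frozen with a cryoprobe on day 7, and the contralateral, untreated tumor was taken 5 days later. The control group had no ablation, and its tumors carry the same day 5 label. There were 9 control and 8 cryoablation tumors by the sample labels and by the column names of the table. The text of the study gives the group sizes the other way round, and the labels were followed here. All of them came from a single cell line, so the number of tumors says nothing of other tumor types, and the frozen tumors themselves were not measured. The labels number the tumors without stating that each came from a different mouse, so the p values measure the spread between these samples.

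The lysosome is the acidic compartment in which cells break down proteins, glycans and lipids delivered by endocytosis, phagocytosis and autophagy. The V-ATPase pumps protons into it, the hydrolases work at that low pH, and glycosylated membrane proteins line its limiting membrane. TFEB binds a short E-box motif in the promoters of many lysosomal genes, and macrophages are among the cells with the most lysosomes. A bulk tumor draws its lysosomal transcripts from cancer cells, macrophages and the other cells it holds. In bulk RNA, fewer cells of a type and less RNA per cell cannot be told apart.

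The E-box is visible in the promoters of these genes. RefSeq promoter windows (GRCm38.p6, 250 bases before to 50 after the transcript start) were at hand for 31 of the 36 genes, and were not at hand for Ctsb, Ctsh, Npc1, Atp6v1b2 and Atp6v1h. The letters CACGTG, which read the same on both strands, stood in the promoters of 13 of the 31 genes (41.9%), of 17 of 78 other lysosome genes (21.8%) and of 2187 of all 27025 genes (8.09%). The longer form TCACGTGA, which contains CACGTG, was found in 6 of the 31 genes (19.4%) and in 1.12% of all genes. A match is a string of letters and not a measured binding site. All 8 windows with TCACGTGA are shown, since it is the longest of these forms found in the 31 genes. Then follows 1 window each of Lgmn and Lamp1 with CACGTG alone. Each runs 5′ to 3′ on the strand of the gene with the motif in capitals.
Ctsd (chr7:142387908-142387937, minus strand): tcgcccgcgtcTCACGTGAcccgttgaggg
Ctsa, first match (chr2:164833749-164833778, plus strand): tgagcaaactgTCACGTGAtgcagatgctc
Ctsa, second match (chr2:164833766-164833795, plus strand): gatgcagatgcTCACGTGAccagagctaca
Gla, first match (chrX:134601215-134601244, minus strand): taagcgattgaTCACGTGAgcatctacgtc
Gla, second match (chrX:134601182-134601211, minus strand): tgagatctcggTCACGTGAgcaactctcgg
Mcoln1 (chr8:3500462-3500491, plus strand): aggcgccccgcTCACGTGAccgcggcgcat
Atp6v0d1 (chr8:105566050-105566079, minus strand): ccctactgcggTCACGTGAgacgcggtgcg
Atp6v1a (chr16:44139373-44139402, minus strand): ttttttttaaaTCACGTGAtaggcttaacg
Lgmn (chr12:102439124-102439153, minus strand): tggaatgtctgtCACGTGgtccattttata
Lamp1 (chr8:13159134-13159163, plus strand): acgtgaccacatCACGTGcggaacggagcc

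The matches lay at varied distances from the start of transcription. Counted from the start site to the first base of CACGTG, the position of the windows shown was -98 in Ctsd, -12 and 5 in Ctsa, -227 and -194 in Gla, -131 in Atp6v1a, -45 in Mcoln1, -3 in Atp6v0d1, -49 in Lgmn and -15 in Lamp1. Ctsd held a further CACGTG at -245 and Mcoln1 at -71. Lamp1 held 4 copies of CACGTG in its window, more than any other of the 31 genes. The remaining genes with CACGTG alone were Ctsf, Ctsl, Gaa, Glb1 and Naglu.

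Total counts were between 13524899 and 17898672 per tumor, and a count of 3 corresponded to 0.168 to 0.222 CPM (the counts of a gene scaled to one common library total). The 36 genes lay far above this, with means from 64.6 counts for Ctsf to 22379 for Psap. All 12 macrophage markers were detected, and their summed level was 1047 to 2837 CPM in the control group (median 1780) and 866 to 3628 CPM in the cryoablation group (median 1686). The 8 fibroblast markers summed to 7816 to 13958 CPM in the control group (median 8883) and 5343 to 10397 CPM in the cryoablation group (median 8585). The relations to cell type given below use the macrophage markers only. The 8 epithelial markers expected of a colon carcinoma summed to 25.5 to 75.8 CPM in the control group and 20.1 to 137 CPM in the cryoablation group. Of these, Cdx2 was at 0 in all 17 tumors and Epcam was between 0.48 and 8.67 CPM, while Cdh1 (5.31 to 26.2 CPM) and Lgals4 (8.42 to 16.9 CPM) were found in every tumor. Krt8 (0 to 58.8 CPM) and Krt18 (0 to 54.8 CPM) reached the highest values of the list, and Krt20 and Vil1 reached at most 0.482 and 0.672 CPM. In 3 libraries, cryoablation replicates 2, 4 and 5, short genes were high relative to long genes. The slope of a tumor's log2 CPM per doubling of gene length was -0.301, -0.268 and -0.391 in them, against -0.168 to 0.195 in the control group. The log2 fold change of each of the 36 genes is given with and without these libraries, and the relations across tumors also with the trend over gene length removed. The origin of the slope was not tested.

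The abundance of the 36 transcripts spanned a wide range. Per kilobase of listed gene length, Psap, the precursor of the saposins that help degrade sphingolipids, had the highest level, with a mean of 506 ± 124 CPM per kb (SD, n = 17). It was followed by Ctss at 453 ± 160 and Ctsz at 292 ± 114 CPM per kb. The spreads of Psap and Ctss between tumors overlap, and their order within single tumors was not tested. Laptm4a, Ctsb, Lamp1, Ctsl, Lgmn, Grn, Ctsd, Cd63 and Npc2 came next, between 201 and 100 CPM per kb. The lowest levels belonged to Npc1 at 2.19 ± 1.01, Tfeb at 1.97 ± 0.444 and Ctsf at 0.839 ± 0.469 CPM per kb. The spread between tumors also differed among members. The SD of log2 CPM over 17 tumors had a median of 0.28 over the 36 genes, beside 0.35 over all genes tested, and ranged from 0.09 for the calcium channel gene Mcoln1 to 0.87 for the cholesterol transporter gene Npc1. Ctsf and Ctsd were nearly as variable as Npc1, with SDs of 0.86 and 0.84.

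**Figure D1:**
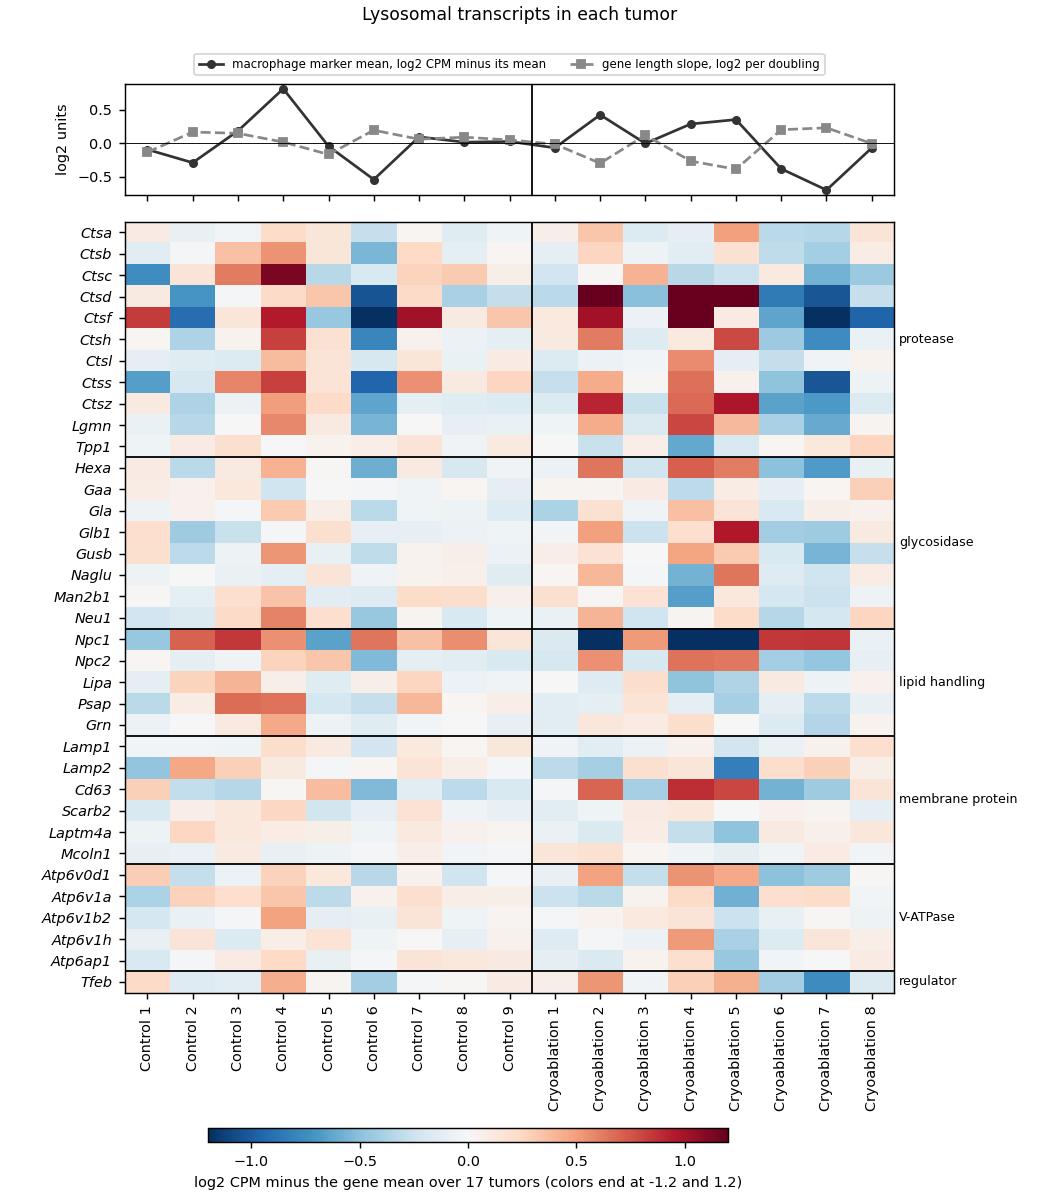
The upper panel plots, for each of the 17 tumors, the mean log2 CPM of 12 macrophage markers minus its mean over tumors and the slope of log2 CPM per doubling of gene length. The heat map gives the log2 CPM of each of the 36 genes minus its own mean, with genes in rows ordered by role. Control replicate 4 is red in most protease rows, cryoablation replicates 2, 4 and 5 are red in Ctsd, Ctsz, Npc2 and Cd63 and blue in Npc1, and most V-ATPase and membrane protein rows stay pale.

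The first comparison asked whether lysosomal transcripts in a distant tumor differed after the opposite tumor was frozen. No difference passed the test. Of the 36 genes, 0 had an unadjusted p under 0.05 in edgeR's quasi-likelihood test, beside 4.91% of the 13005 genes tested (3.74% higher and 1.17% lower in the cryoablation group). After the Benjamini-Hochberg method was applied to all genes tested, 0 of the 36 and 0 of 13005 passed, and the adjusted p of the 36 was at least 0.728. The results of the study give limits of a log2 fold change beyond 1 in either direction and a p under 0.05. They name DESeq, and the methods of the study name edgeR. With edgeR and an unadjusted p, these limits were passed by 0 of the 36 and by 0.492% of all genes. An exact permutation test, two-sided and run over all 24310 ways to split the tumors, gave 0 of the 36 with an unadjusted p under 0.05, beside 2.8% of all genes, and the smallest p among the 36 was 0.0921, for Laptm4a.

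The fold changes were small and pointed both ways. The log2 fold change, cryoablation over control, was above 0 for 17 genes and below 0 for 19. It was within 0.2 of 0 for 29 of them, with a median of -0.00 beside -0.01 over all genes. The ranges of the control and cryoablation groups overlapped for all 36 genes. The 95% interval lay inside -1 to 1 for 34 genes and inside -0.5 to 0.5 for 23, and the exceptions to the wider limits were Ctsd and Npc1. Many signs rested on the 3 libraries with steep length slopes. Without them, 18 of the 36 genes had the opposite sign, and 31 of the 36 genes were lower in the cryoablation group and 5 higher, with a median log2 fold change of -0.12 beside -0.01 over all genes, and 1 gene, Ctsd, had an unadjusted p under 0.05, beside 2.45% of all genes in that fit. With all tumors, those 3 libraries were together above the control range for 6 of the 36 genes (16.7%, beside 13.2% of all genes) and together below it for 4 (11.1%, beside 12% of all genes).

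**Figure D2:**
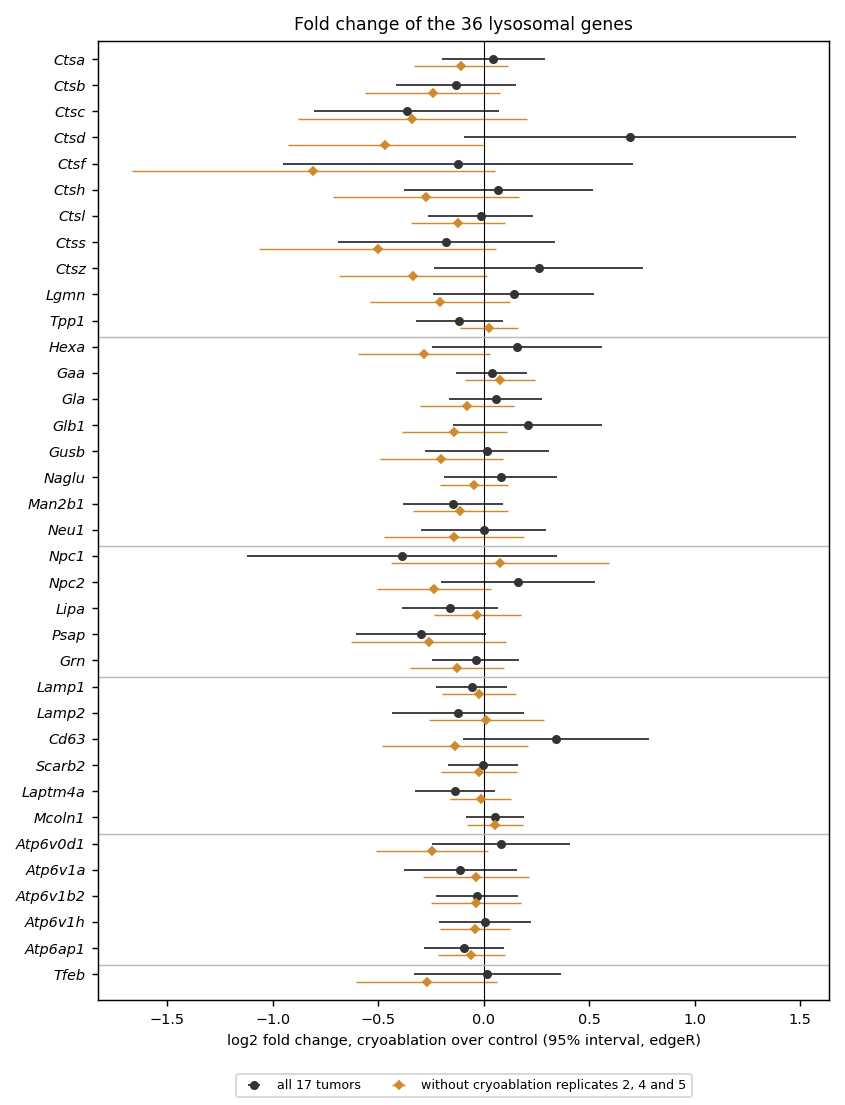
Log2 fold change of each of the 36 genes, cryoablation over control, with its 95% interval from edgeR, for all 17 tumors (dark circles) and without cryoablation replicates 2, 4 and 5 (orange diamonds). Gray lines separate the roles. All 36 intervals from 17 tumors include 0, and the point for Ctsd moves from 0.69 to -0.47 when the 3 libraries are left out.

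The proteases included the widest differences. Ctsd (ENSMUSG00000007891, chromosome 7) encodes cathepsin D, the main aspartic protease of the lysosome. It had 121 CPM in the lowest control tumor, 246 in the median and 314 in the highest, and 122, 203 and 845 CPM in the cryoablation group. Cryoablation replicates 2, 4 and 5, at 594, 845 and 714 CPM, lay above every control tumor, while the other 5 lay between 122 and 206 CPM, inside the control range. Ctsd had a log2 fold change of 0.69 (SE 0.37, 95% interval -0.09 to 1.48), with an unadjusted p of 0.0801 and an adjusted p of 0.728 in edgeR. The exact permutation p was 0.384. Without the 3 libraries the log2 fold change was -0.47 (95% interval -0.93 to -0.01), with an unadjusted p of 0.0474 and an adjusted p of 0.941. With limma voom and sample quality weights it was -0.04.

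Ctss (ENSMUSG00000038642, chromosome 3) encodes cathepsin S, the cysteine protease that trims the invariant chain of MHC class II in antigen-presenting cells, and had the highest level per kb among the proteases. It ranged from 299 to 1022 CPM in the control group, with a median of 646, and from 282 to 913 CPM in the cryoablation group, with a median of 567.6. Cryoablation replicate 7 was the only tumor of its group outside the control range. Ctss had a log2 fold change of -0.18 (SE 0.25, 95% interval -0.69 to 0.34), with an adjusted p of 0.806 in edgeR. Without the 3 libraries it was -0.50 (95% interval -1.06 to 0.06), with an unadjusted p of 0.0762 and an adjusted p of 0.941.

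The other proteases were below the threshold as well. Ctsc, which encodes the dipeptidyl peptidase that activates granule serine proteases, had the lowest value of the proteases at -0.37 (95% interval -0.81 to 0.07), and 7 of 8 cryoablation tumors were below the control median. Ctsz, a carboxypeptidase gene, was at 0.26 and Lgmn, which encodes the asparaginyl endopeptidase legumain, at 0.14. The general cysteine proteases Ctsb and Ctsl were at -0.13 and -0.01. Ctsh, an aminopeptidase gene, was at 0.07, Ctsa, which encodes protective protein cathepsin A, at 0.05, Ctsf at -0.12 and the tripeptidyl peptidase gene Tpp1 at -0.12. Without the 3 libraries Ctsz was at -0.34, Lgmn at -0.21, Ctsh at -0.28, Ctsa at -0.11, Tpp1 at 0.03, Ctsc at -0.34, Ctsb at -0.24 and Ctsl at -0.12. Ctsf moved to -0.81 (95% interval -1.67 to 0.05), the lowest value of the 36 genes in those 14 tumors, with an unadjusted p of 0.0643.

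The glycosidases varied little between the groups, with 6 above 0, 2 below 0 and log2 fold changes from -0.15 to 0.21. Glb1 (ENSMUSG00000045594, chromosome 9), which encodes the beta-galactosidase that removes galactose from gangliosides and keratan sulfate, was the farthest from 0. It had 44.5, 57.0 and 69.0 CPM in the lowest, median and highest control tumors and 44.5, 61.4 and 116 CPM in the cryoablation group. Cryoablation replicates 2 and 5, at 84.4 and 116 CPM, lay above the control range. Cryoablation replicate 7, at 44.477 CPM, lay just below the lowest control tumor, at 44.505 CPM, and the groups otherwise overlapped. The log2 fold change was 0.21 (SE 0.17, 95% interval -0.14 to 0.56), with an adjusted p of 0.739 in edgeR, and was -0.14 without the 3 libraries.

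Hexa (ENSMUSG00000025232, chromosome 9), the alpha subunit of beta-hexosaminidase, had the highest level per kb of the glycosidases. It was at 78.3, 118 and 157 CPM in the lowest, median and highest control tumors and at 73.5, 111 and 193 CPM in the cryoablation group. Replicates 2, 4 and 5 of the cryoablation group, at 183, 193 and 180 CPM, were above every control tumor. Hexa had a log2 fold change of 0.16 (SE 0.19, 95% interval -0.25 to 0.56, adjusted p of 0.79 in edgeR), and it was -0.28 without those libraries. Of the others, the acid alpha-glucosidase gene Gaa was at 0.04, the alpha-galactosidase gene Gla at 0.06, the beta-glucuronidase gene Gusb at 0.01, the heparan sulfate enzyme gene Naglu at 0.08, the alpha-mannosidase gene Man2b1 at -0.15 and the sialidase gene Neu1 at -0.00. The values without the 3 libraries were 0.08, -0.08, -0.20, -0.05, -0.11 and -0.14 in the same order.

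Among the genes of lipid handling and cofactors, 4 of 5 were below 0. Psap (ENSMUSG00000004207, chromosome 10) had the smallest unadjusted p of all 36 genes. It had 1082, 1429 and 2158 CPM in the lowest, median and highest control tumors and 1026, 1251 and 1518 CPM in the cryoablation group. In 7 of 8 cryoablation tumors Psap was below the control median, yet only replicate 5 was below the control range. The log2 fold change was -0.30 (SE 0.15, 95% interval -0.61 to 0.01), with an unadjusted p of 0.0589 and an adjusted p of 0.728 in edgeR and an exact permutation p of 0.0944. Without the 3 libraries it was -0.26.

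Npc1 (ENSMUSG00000024413) encodes the membrane transporter that moves cholesterol out of the lysosome. It had 13.7, 31.5 and 38.8 CPM in the lowest, median and highest control tumors and 6.08, 19.7 and 39.2 CPM in the cryoablation group. Cryoablation replicates 2, 4 and 5, at 9.30, 6.72 and 6.08 CPM, were below every control tumor, and replicate 7, at 39.2 CPM, was above every control tumor. For Npc1 the log2 fold change was -0.39 (SE 0.35, 95% interval -1.12 to 0.35, adjusted p of 0.756 in edgeR). It was 0.08 without the 3 libraries. Npc2, the soluble partner of Npc1, was at 0.16 with all tumors and -0.24 without them. The lysosomal acid lipase gene Lipa, for which the 3 libraries were together below the control range, was at -0.16 with all tumors and -0.03 without them. The progranulin gene Grn was at -0.04 and -0.13.

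The membrane proteins held 2 genes above 0 and 4 below. Cd63 (ENSMUSG00000025351, chromosome 10), a tetraspanin of late endosomes and lysosomes, had the largest value. Its levels were 306, 390 and 573 CPM in the lowest, median and highest control tumors and 299, 465 and 818 CPM in the cryoablation group. Replicates 2, 4 and 5 of the cryoablation group, at 717, 818 and 770 CPM, were above the control range and replicate 6 was below it. Cd63 had a log2 fold change of 0.34 (SE 0.21, 95% interval -0.10 to 0.78, adjusted p of 0.728 in edgeR), which was -0.14 without the 3 libraries.

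Laptm4a (ENSMUSG00000020585, chromosome 12), a small transmembrane protein gene with the highest level per kb of this group, had 339, 371 and 419 CPM in the lowest, median and highest control tumors and 253, 352 and 389 CPM in the cryoablation group. In 4 of 8 cryoablation tumors, replicates 1, 2, 4 and 5, it was below the control range. The log2 fold change was -0.14 (SE 0.09, 95% interval -0.33 to 0.05, adjusted p of 0.728 in edgeR) and was -0.01 without replicates 2, 4 and 5. The major membrane glycoprotein genes Lamp1 and Lamp2 were at -0.06 and -0.12, Scarb2, whose protein carries glucocerebrosidase to the lysosome, at -0.00 and Mcoln1 at 0.05. For Lamp1 the 95% interval was -0.23 to 0.11, and for Mcoln1 -0.09 to 0.19. In the 14 other tumors Lamp1 was at -0.02, Lamp2 at 0.01, Scarb2 at -0.02 and Mcoln1 at 0.05.

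The V-ATPase genes were between -0.11 and 0.08 with all tumors. Atp6v1a (ENSMUSG00000052459, chromosome 16), the ATP-hydrolyzing A subunit, had 70.7, 97.6 and 116 CPM in the lowest, median and highest control tumors and 61.7, 92.5 and 108 CPM in the cryoablation group. Only cryoablation replicate 5 was outside the control range. Its log2 fold change was -0.11 (SE 0.13, 95% interval -0.38 to 0.16, adjusted p of 0.783 in edgeR). The accessory subunit gene Atp6ap1 (ENSMUSG00000019087, chromosome X), the most abundant of the V-ATPase genes per kb, had 159, 194 and 214 CPM in the lowest, median and highest control tumors and 133, 180 and 209 CPM in the cryoablation group. In 7 of 8 cryoablation tumors it was below the control median, and in 1 it was below the control range. Its log2 fold change was -0.09 (SE 0.09, 95% interval -0.28 to 0.09, adjusted p of 0.762 in edgeR). Atp6v0d1 in the membrane sector was at 0.08, the B subunit gene Atp6v1b2 at -0.03 and the H subunit gene Atp6v1h at 0.01. In the 14 other tumors Atp6v1a was at -0.04, Atp6ap1 at -0.06, Atp6v0d1 at -0.25, Atp6v1b2 at -0.04 and Atp6v1h at -0.04.

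Tfeb (ENSMUSG00000023990, chromosome 17) had the same median in both groups. It had 8.13, 11.0 and 14.8 CPM in the lowest, median and highest control tumors and 6.39, 11.0 and 15.8 CPM in the cryoablation group. The log2 fold change was 0.02 (SE 0.17, 95% interval -0.33 to 0.37, adjusted p of 0.975 in edgeR), and -0.27 without the 3 libraries. TFEB is controlled mainly by phosphorylation and its place in the cell, which transcript levels do not show.

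Other genes of the lysosome were similar. Of 99 further genes in 5 lists (other V-ATPase subunits, hydrolases, membrane proteins, mannose 6-phosphate sorting, and the TFEB family with the mTORC1 machinery of the lysosome), 98 were in the table and 90 were tested. An unadjusted p under 0.05 was reached by 2 higher genes, by 1 lower gene and by 0 genes after adjustment in edgeR, beside 3.74% higher and 1.17% lower of all genes. The median log2 fold change of the 90 genes was -0.02. By list, 0 of 15 V-ATPase subunits, 1 of 30 hydrolases, 1 of 19 membrane proteins, 0 of 11 sorting genes and 1 of 15 genes of the TFEB and mTORC1 list were counted.

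The lower gene was Slc17a5, which encodes the sialic acid exporter sialin. It had 11.9, 15.9 and 17.6 CPM in the lowest, median and highest control tumors and 8.20, 11.7 and 15.0 CPM in the cryoablation group. All 8 cryoablation tumors were below the control median and 5 were below the control range. For Slc17a5 the log2 fold change was -0.41 (SE 0.13), with an unadjusted p of 0.00491 and an adjusted p of 0.728 in edgeR and an exact permutation p of 0.00411. Leaving out each tumor in turn gave -0.48 to -0.36, each with an unadjusted p under 0.05.

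The higher genes were Dnase2a, which encodes acid DNase II, and Lamtor4, a subunit of the Ragulator scaffold for mTORC1. Dnase2a had 34.8, 38.1 and 51.6 CPM in the lowest, median and highest control tumors and 32.2, 45.3 and 91.9 CPM in the cryoablation group, with a log2 fold change of 0.44 (unadjusted p of 0.0415 and adjusted p of 0.728 in edgeR). Lamtor4 had 15.5, 20.5 and 40.0 CPM and 14.9, 26.2 and 88.8 CPM, with a log2 fold change of 0.79 (unadjusted p of 0.0423 and adjusted p of 0.728 in edgeR). For both genes 3 cryoablation tumors were above the control range. For Dnase2a 3 were below it, and for Lamtor4 the lowest cryoablation tumor was below it. Each gene kept an unadjusted p under 0.05 in 7 of the 17 fits that left out a single tumor. Without cryoablation replicates 2, 4 and 5 the log2 fold change was -0.06 for Dnase2a and -0.23 for Lamtor4.

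The second comparison asked whether lysosomal transcripts followed the macrophage content of the tumors, across all 17 of them. Pearson r was computed between the log2 CPM of each gene and the mean log2 CPM of the 12 macrophage markers, with permutation p values adjusted over the 12993 genes tested outside the marker list. The relation was positive with an adjusted p under 0.05 for 15 of the 36 genes and negative for 0, beside 7.4% positive and 9.71% negative of all genes. It was found for 8 of 11 proteases (Ctsa, Ctsb, Ctsd, Ctsf, Ctsh, Ctss, Ctsz and Lgmn), 3 of 8 glycosidases (Hexa, Gusb and Neu1), 2 of 5 lipid and cofactor genes (Npc2 and Grn), 1 of 5 V-ATPase genes (Atp6v0d1), 0 of 6 membrane proteins and Tfeb. Of the other lysosome genes, 26 of 90 were positive and 6 negative.

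The highest r belonged to Ctsh, Lgmn and Tfeb. For Ctsh, r was 0.93 and Spearman's rho 0.83 (adjusted permutation p of 0.000948 and 0.0025), and r was 0.90 without the 2 tumors farthest from the median of the marker mean. Those tumors were control replicate 4, which had the highest mean of the log2 values, and cryoablation replicate 7, which had the lowest. By summed CPM, cryoablation replicates 2 and 5 were above control replicate 4. For Lgmn, r was 0.90 and rho 0.82 (adjusted permutation p of 0.000948 and 0.00446), and r was 0.87 without these tumors. For Tfeb, r was 0.89 and rho 0.80 (adjusted permutation p of 0.000948 and 0.00561), and r was 0.85 without these tumors. The lowest r belonged to Npc1 at -0.46, Tpp1 at -0.40 and Lamp2 at -0.33, with adjusted permutation p values of 0.144, 0.209 and 0.295. Their rho values were -0.49, -0.36 and -0.28, with adjusted permutation p values of 0.131, 0.287 and 0.411. Without the same 2 tumors they were -0.68, -0.50 and -0.42, and the negative relation of Npc1 then passed the adjusted test, as did that of 20.2% of all genes.

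**Figure D3:**
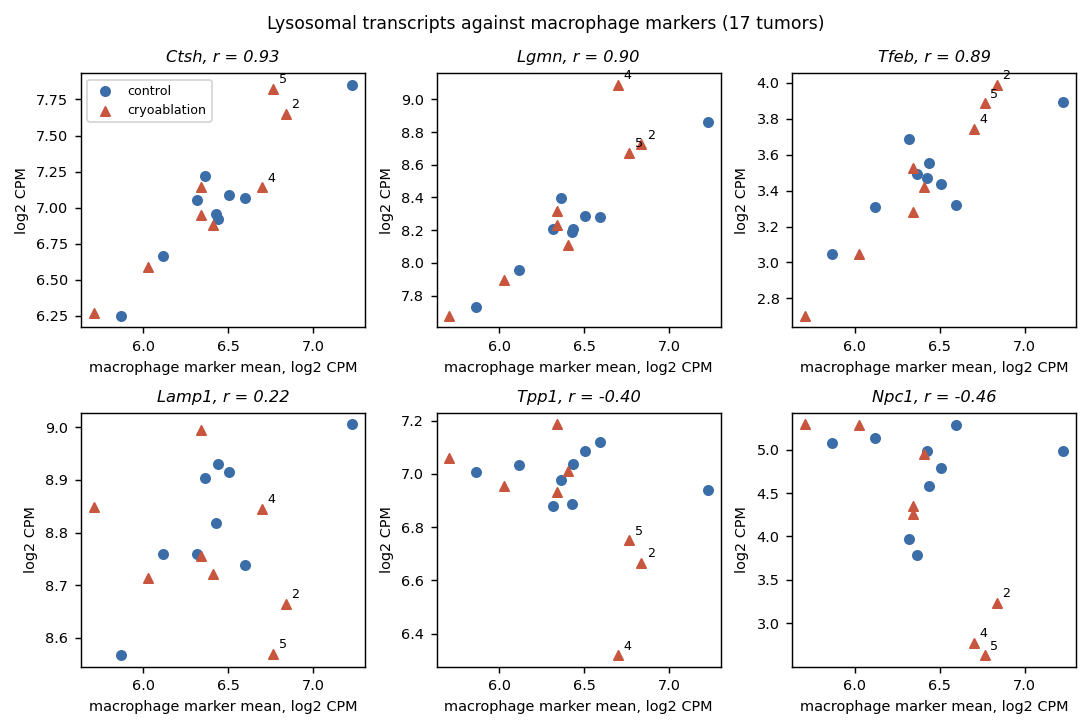
Log2 CPM of the 3 genes with the highest r and of Lamp1, Tpp1 and Npc1 (vertical axes) against the mean log2 CPM of 12 macrophage markers (horizontal axes) in 9 control (blue circles) and 8 cryoablation tumors (red triangles). Numbers mark cryoablation replicates 2, 4 and 5. Ctsh, Lgmn and Tfeb climb with the marker mean in both groups, Lamp1 shows no clear trend, and the 3 numbered tumors lie at the bottom in Tpp1 and Npc1.

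The relation did not rest on the 3 libraries with steep length slopes. In the other 14 tumors it was positive for 18 of the 36 genes and negative for 0, beside 6.2% and 5.33% of all genes, with an r of 0.95 for Ctsh, 0.95 for Lgmn and 0.86 for Tfeb. After each tumor's trend over gene length was removed, an alternative added after the data were seen, it was positive for 12 genes and negative for 0, beside 4.8% and 4.99% of all genes. Ctsa, Ctsd, Ctss, Npc2 and Atp6v0d1 missed an adjusted p of 0.05 in that setting, with r of 0.52, 0.59, 0.64, 0.54 and 0.56, while Ctsc and Atp6v1b2 passed it with r of 0.80 and 0.71. In the same setting r was 0.80 for Ctsh, 0.85 for Lgmn and 0.68 for Tfeb. Centred on the group means, r was 0.94 for Ctsh, 0.91 for Lgmn and 0.89 for Tfeb. The summed macrophage markers overlapped between the groups, and 1 of the 12 markers, Adgre1, had an unadjusted p under 0.05 (log2 fold change -0.69). All r values share the same libraries and the same total counts.

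The third comparison asked which members varied with Tfeb itself. With an adjusted permutation p under 0.05, 16 of the other 35 genes were positive and 3 negative, beside 25% positive and 28.1% negative of all genes, so that Tfeb tracked a large part of the transcriptome. The highest r was 0.91 for Ctsh, 0.90 for Hexa and 0.90 for Ctsz, and the lowest was -0.70 for Npc1, -0.61 for Lamp2 and -0.57 for Tpp1. The rho values of these 6 genes were 0.86, 0.85, 0.88, -0.75, -0.64 and -0.70, and their adjusted permutation p values were at most 0.0371 for r and at most 0.0192 for rho. Without the 2 tumors farthest from the median of Tfeb the r values were 0.88, 0.87, 0.90, -0.65, -0.54 and -0.53 in the same order. In the 14 tumors without cryoablation replicates 2, 4 and 5, 14 genes were positive and 0 negative, beside 6.55% and 12.2% of all genes. With the trend over gene length removed, 18 were positive and 4 negative, beside 23.9% and 25.2%, and they were partly other genes. The negative genes in that setting were Npc1, Laptm4a, Lamp1 and Atp6ap1, with r of -0.81, -0.87, -0.69 and -0.62, while Lamp2 and Tpp1 were at -0.20 and -0.44 (adjusted permutation p of 0.537 and 0.131). Among the positive genes, Ctss went from 0.68 to 0.00, Atp6v0d1 from 0.87 to 0.40 and Grn from 0.70 to 0.43, each missing the adjusted test. Among genes with a promoter window, 6 of the 13 with CACGTG and 8 of those without it were positively related to Tfeb. Tfeb itself is among the 18 genes without CACGTG and was not tested against itself.

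The slope over gene length moved with many of the same transcripts. The relation to the slope, examined after the data were seen, was negative for 14 of the 36 genes and positive for 6 at an adjusted permutation p under 0.05, beside 30.4% and 34.6% of all genes. The extremes were Cd63 with an r of -0.97 and a rho of -0.96 and Npc1 with an r of 0.97 and a rho of 0.96 (adjusted permutation p of 3.66e-05 for each r), and neither value rested on the 3 steepest libraries, since r was -0.96 and 0.94 in the other 14 tumors. For Tfeb, r was -0.81 and rho -0.85 (adjusted permutation p of 0.000274 and 0.00021). The slope and the macrophage mean were themselves related, with an r of -0.60 and a rho of -0.62 (permutation p of 0.00988 and 0.00889) over the 17 tumors and an r of -0.44 over the 14. Some members followed the macrophage markers with a relation to the slope that did not pass the adjusted test. Grn, Ctss and Ctsb had an r of 0.88, 0.87 and 0.85 with the macrophage mean and of -0.35, -0.40 and -0.39 with the slope. Of these, Ctss missed the adjusted test of the macrophage relation with the length trend removed (adjusted permutation p of 0.0505).

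**Figure D4:**
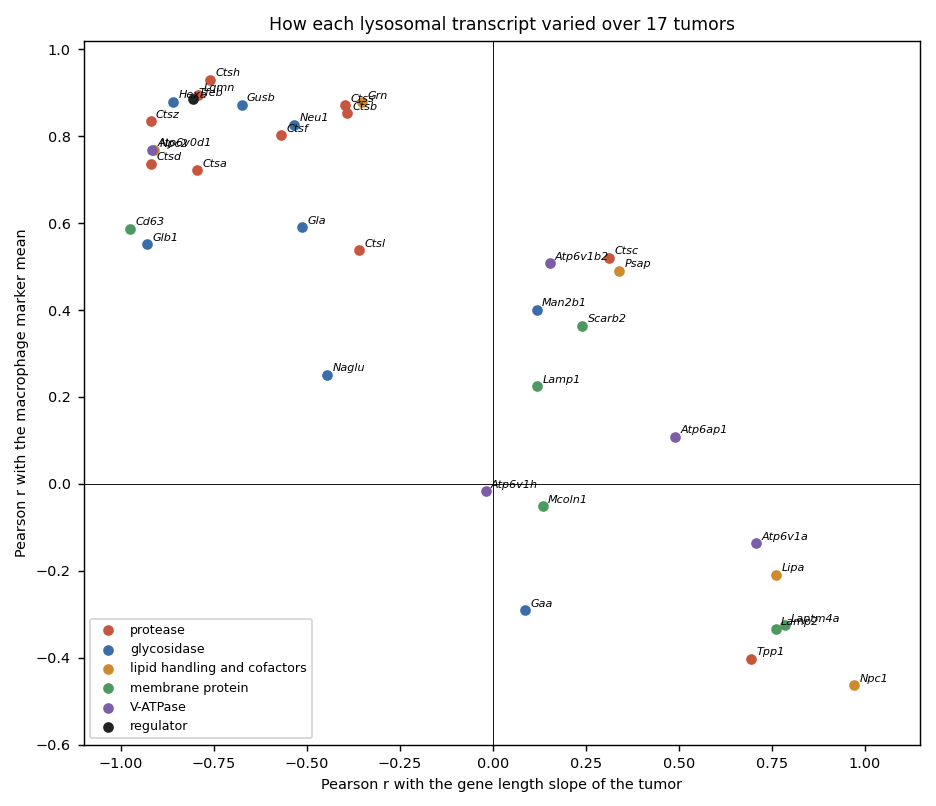
Pearson r of each of the 36 genes with the macrophage marker mean (vertical axis) against its r with the gene length slope (horizontal axis) over 17 tumors, colored by role. Most proteases lie at the upper left, but Ctsc and Tpp1 lie to the right of 0. Grn, Ctss and Ctsb lie high and nearer the middle. Npc1 lies farthest to the lower right with 0.97 and -0.46, near Lamp2, Laptm4a, Tpp1, Lipa and Atp6v1a.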

How the data were processed

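Bulk RNA sequencing of 9 control and 8 cryoablation MC38 tumors was analysed, grouped by the sample labels. The labels and the methods give mRNA capture on magnetic beads and a NovaSeq platform. The aligner, the counting program and its strand setting are not given in the sources used here, and the submitters' processing notes list GRCm38 and mm10. The authors deposited raw counts of reads per gene, and FPKM, which equal the count divided by gene length and by the total count and were used for no test. Positions in the table equal those of GENCODE M21 for 512 of 21827 shared genes and 0 of the 36 members, so none is printed. No libraries were identical, and 0 columns lacked a sample.

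Counts were tested with edgeR 4.0.16 in R 4.3.3 (TMM, filterByExpr, quasi-likelihood F test, group as the only term), with Benjamini-Hochberg adjustment over 13005 genes. CPM are TMM-normalized. Standard errors were obtained from the fold change and its F statistic. Exact permutation tests, two-sided, used log2 CPM with a prior count of 2, and the smallest p they can give is 8.23e-05. Correlations used 100000 permutations, whose smallest p is 1e-05, and were two-sided. The members and lists were chosen with earlier results of these data known. All 36 members are named. Values are given in full for the member with the largest change and the member with the highest level per kb in each role, and other lysosome genes are named at an unadjusted p under 0.05. For relations, the 3 highest and 3 lowest r are named.

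Alternatives were DESeq2 1.42.0, limma 3.58.1 voom with quality weights, upper-quartile normalization, no filter, a replicate block, a gene length offset (natural spline, 4 degrees of freedom), a prior count of 0.5, and leaving out tumors. Scripts were tested on simulated data. E-boxes were read from RefSeq promoters. Of 36 promoter entries of members, 31 began a GENCODE M21 transcript on the same strand. The proteomics and flow cytometry of the study were not analysed here.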

Additional observations from a re-analysis of the deposited data

Results flagged for a closer look

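Of 78 groups of values tested for a sample far from the others (each of the 36 members and 3 other named genes in each treatment group, with a gap over range above Dixon's 95% critical value), 2 were marked, where chance marks about 1 in 20. For Ctsl, cryoablation replicate 4 was the highest of its group at 1400 CPM, and the nearest tumor had 972 CPM. For Grn, control replicate 4 was the highest of its group at 616 CPM, and the nearest tumor had 486 CPM. Control replicate 4 also had the highest mean of log2 macrophage marker values of all 17 tumors. The cause of neither value was tested.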

How the results depend on the processing

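The absence of members past the adjusted p, or past the fold and unadjusted p limits, held under every alternative run. The count of members at an unadjusted p under 0.05, 0 in the report, became 1 with DESeq2 (Psap), 2 with limma voom (Ctsc and Atp6v1a), 1 with the gene length offset (Psap) and 1 without cryoablation replicates 2, 4 and 5 (Ctsd). It was 0 to 3 when single tumors were left out. Of all genes tested, 6.77% reached an unadjusted p under 0.05 with DESeq2, 10.1% with limma voom and 5.44% with the gene length offset. Without cryoablation replicates 2, 4 and 5 the share was 2.45%. With limma voom 27 of the 36 members were lower and 9 higher, with a median log2 fold change of -0.04 beside -0.01 over all genes. Psap was counted without control replicate 1, 5 or 6 or cryoablation replicate 3, Ctsc without control replicate 1 or cryoablation replicate 3, and Ctsd without cryoablation replicate 3, 6 or 7. Over all genes, 639 in the report became 1312 with limma voom, 992 with no filter, 325 without replicates 2, 4 and 5, and 252 (without cryoablation replicate 2) to 1388 (without cryoablation replicate 3) with single tumors left out. The fold and p limits were passed by 64 genes in the report and by 432 with no filter, 39 with the gene length offset and 34 to 165 with single tumors left out. The other lysosome genes numbered 3 in the report and 1 to 10 with single tumors left out. With the replicate block, 33 genes passed these limits, and 0 members an unadjusted p under 0.05. The replicate number was treated as a name only, since the correlations of same-numbered tumors ranged from -0.51 to 0.64 and 2 of 8 tumors matched their own number best.

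The sign changed under some alternative for 25 of 36 members, including those with the largest fold changes, Ctsd and Npc1. Without cryoablation replicates 2, 4 and 5 the log2 fold change was -0.11 for Ctsa, -0.47 for Ctsd, -0.28 for Ctsh, -0.34 for Ctsz, -0.21 for Lgmn, 0.027 for Tpp1, -0.28 for Hexa, -0.079 for Gla, -0.14 for Glb1, -0.20 for Gusb, -0.046 for Naglu, 0.076 for Npc1, -0.24 for Npc2, 0.011 for Lamp2, -0.14 for Cd63, -0.25 for Atp6v0d1, -0.042 for Atp6v1h, -0.27 for Tfeb, -0.059 for Dnase2a and -0.23 for Lamtor4. With limma voom it was -0.037 for Ctsd, -0.013 for Ctsz, -0.041 for Hexa, -0.048 for Gla, -0.062 for Gusb, 0.039 for Neu1, -0.0088 for Npc2, -0.013 for Atp6v0d1, -0.029 for Atp6v1h and -0.083 for Tfeb. With the gene length offset it was 0.094 for Ctsl, -0.017 for Ctsz, -0.0059 for Hexa, 0.020 for Neu1, 0.095 for Scarb2, -0.083 for Atp6v0d1 and 0.044 for Atp6v1b2. Upper-quartile normalization gave -0.0067 for Gusb, -0.011 for Atp6v1h and -0.0039 for Tfeb. With no filter it was -0.0014 for Gusb and -0.0057 for Atp6v1h. The replicate block gave -0.013 for Gusb, -0.012 for Atp6v1h and -0.013 for Tfeb, and DESeq2 gave 0.0061 for Neu1 and 0.0023 for Scarb2. With single tumors left out the ranges that crossed 0 were -0.031 to 0.087 for Ctsa, -0.38 to 0.011 for Ctsf, -0.063 to 0.20 for Ctsh, -0.12 to 0.032 for Ctsl, -0.0051 to 0.080 for Gaa, -0.062 to 0.086 for Gusb, -0.025 to 0.15 for Naglu, -0.063 to 0.084 for Neu1, -0.072 to 0.019 for Grn, -0.029 to 0.023 for Scarb2, -0.060 to 0.031 for Atp6v1b2, -0.081 to 0.056 for Atp6v1h and -0.069 to 0.096 for Tfeb.

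The 15 members related to the macrophage markers numbered 12 to 18 under the alternatives run. The share of all genes moved more, from 7.4% positive and 9.71% negative to 21.1% and 25.8% without control replicate 4 and 16.7% and 20.2% without the 2 farthest tumors. Of the 90 other lysosome genes, the 26 positive and 6 negative became 14 and 4 with the length trend removed. They became 14 and 1 without cryoablation replicate 7, and 31 and 20 without control replicate 4. The count of negative members, 0 in the report, was 1 (Npc1) without the 2 farthest tumors and 0 to 1 with single tumors left out, the 1 being without control replicate 4. With the length trend removed the r of Lamp2 was 0.037. For Tfeb, the 3 negative members became 0 without cryoablation replicates 2, 4 and 5, 1 without the 2 farthest tumors, and 1 (without cryoablation replicate 2) to 5 (without control replicate 4) with single tumors left out. The causes of these shifts were not tested. With 9 and 8 tumors and a median standard error of 0.14 on the log2 scale, differences inside the printed intervals are not excluded. The smallest difference that could be detected was not computed.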
